A study of Mus musculus with 12 samples.

Results

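The Kv1 genes code for a family of voltage-gated potassium channels of axons. The 9 members described here were chosen by symbol, as 6 alpha subunit genes (Kcna1 to Kcna6) and 3 beta subunit genes (Kcnab1 to Kcnab3), out of 15759 entries of the table. All 9 passed the filter of a mean of at least 10 normalized counts that left 15369 tested genes. The other Kv1 alpha genes of the annotation, Kcna7 and Kcna10, were not analysed here.

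RNA came from whole cortex and whole cerebellum, cut out by hand, of C57BL/6J mice aged 12 weeks. SCA1 KI mice carried Atxn1 with 154 glutamine codons on 1 allele and 2 on the other, under the gene's own regulatory elements and thus in every cell type that uses it, and controls were wild-type (WT) littermates. Each region had 3 libraries per genotype, which makes 4 groups, named by the deposited columns B, C and D (WT cortex), A, E and F (SCA1 KI cortex), 2, 4 and 6 (WT cerebellum) and 1, 3 and 5 (SCA1 KI cerebellum). The labels call the replicates biological and the mice male, whereas the methods speak of both sexes, and no source ties a cortex column to a cerebellum column of the same mouse. Counts per gene do not separate the alleles of Atxn1, so the genotype of a library could not be checked from the repeat.

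Some libraries stood apart from others of their group. WT cortex library B had marker sums of 1504 normalized counts for choroid plexus (157 and 184 in C and D), 16083 for striatum (7661 and 9122) and 130470 for oligodendrocytes (81490 and 75634). SCA1 KI cortex library A differed more from E and F (mean chi-square 33.0 and 36.3 a gene) than these did from each other (10.4). The cortical calls of Kcna1, Kcna2 and Kcnab3 held without any 1 library, with LFC from -1.03 to -0.80, from -0.87 to -0.71 and from -1.33 to -1.07, and the fits without A or B are given beside each result where they change a call.

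A Kv1 channel is a ring of 4 alpha subunits around a pore, and the alpha subunits of different genes can share a ring. Beta subunits bind the ring from the cytoplasm, help to bring it to the axon and change how fast it closes. In the brain Kv1 channels lie at the axon initial segment, beside the nodes of Ranvier of myelinated axons and in the terminals of basket cells, where they limit firing and transmitter release, and human KCNA1 mutations cause an episodic ataxia.

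The coding sequence of each alpha gene lies on 1 exon, while those of the beta genes are spread over 14 to 16. The stretch that makes the potassium filter is shown for the 6 alpha genes because it is what makes them 1 channel family, and because reads of so similar a family could in principle be shared. It was read from GENCODE vM21 transcripts, 48 bases 5′ to 3′ on the coding strand, with the 6 filter codons in capitals.

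Kcna1: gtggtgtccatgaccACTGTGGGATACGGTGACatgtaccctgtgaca

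Kcna2: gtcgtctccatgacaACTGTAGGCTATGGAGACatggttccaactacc

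Kcna3: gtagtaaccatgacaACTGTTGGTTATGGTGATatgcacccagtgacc

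Kcna4: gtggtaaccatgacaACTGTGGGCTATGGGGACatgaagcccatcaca

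Kcna5: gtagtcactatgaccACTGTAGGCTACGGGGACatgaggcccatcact

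Kcna6: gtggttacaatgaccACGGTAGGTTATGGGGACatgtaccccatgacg

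On GRCm38 (mm10) these stretches lie at chr6:126642210-126642257 (Kcna1, minus strand), chr3:107105209-107105256 (Kcna2, plus strand), chr3:107037596-107037643 (Kcna3, plus strand), chr2:107296480-107296527 (Kcna4, plus strand), chr6:126533727-126533774 (Kcna5, minus strand) and chr6:126738629-126738676 (Kcna6, minus strand). The Kcna2, Kcna3, Kcna4, Kcna5 and Kcna6 stretches differ from that of Kcna1 at 15, 11, 11, 14 and 11 of the 48 bases, and 3 to 5 of those differences lie in the capitals. Kcna1, Kcna5 and Kcna6 thus neighbour each other on chromosome 6, and Kcna2 and Kcna3 on chromosome 3. Between alpha genes the coding sequences were 70.1% to 77.3% identical, and between beta genes 67.8% to 76.7%. The longest run of identical bases between transcripts was 20 for Kcna1 and Kcna2 and 91 for Kcna5 and Kcna6, so that some read pairs of the latter pair could be shared, which bears most on the far rarer Kcna5. How the authors counted such reads and whether they used strand is not given in the sources used here. Kcna6, Kcnab1 and Kcnab3 overlap an antisense RNA, over 2355, 201 and 147 exon bases, and their reads could include it. Kcnab2 shares 125 exon bases with Gm16334 on the same strand.

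In WT mice each region had its own mix of Kv1 RNAs. DEGs were genes past 2 limits, an adjusted p under 0.05 (limma, Benjamini-Hochberg over all 15369 tested genes) and a log2 fold change (LFC) of more than 0.25 in size. By that rule 8 of 9 members differed between WT cortex and WT cerebellum, where 31% of all tested genes were higher in the cortex and 30.7% lower. Kcna1, Kcna2 and Kcnab1 were lower in cortex, with LFC of -0.57, -0.48 and -0.97. Kcna3 (0.74), Kcna4 (2.00), Kcna5 (2.11), Kcnab2 (1.44) and Kcnab3 (0.90) were higher. Kcna6 was not called (LFC -0.19, 95% interval -0.40 to 0.01, adjusted p = 0.0811).

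To compare genes with each other, normalized counts were divided by the exon length of the gene in kb. On that scale Kcna1 was the most abundant alpha gene in WT cortex, at 2848 ± 301 (SD, n = 3) per kb, followed by Kcna2 at 1799 ± 113, Kcna6 at 709 ± 60.2, Kcna3 at 298 ± 6.42, Kcna4 at 216 ± 16.3 and Kcna5 at 46.4 ± 9.20. No neighbours in that order overlapped in their libraries. The same 3 genes led in WT cerebellum, Kcna1 at 4215 ± 116 per kb, Kcna2 at 2506 ± 195 and Kcna6 at 809 ± 18.9. Of the beta genes, Kcnab2 led in WT cortex at 3722 ± 195 per kb, against 1371 ± 43.8 for Kcnab3 and 466 ± 49.5 for Kcnab1. In WT cerebellum Kcnab2 stood at 1398 ± 319 per kb, while Kcnab1 at 908 ± 48.2 and Kcnab3 at 744 ± 144 overlapped. These values rest on all annotated exons, whichever transcripts the tissue uses. Before division Kcna2 was above Kcna1, with means of 21423 and 13614 normalized counts in WT cortex and 29831 and 20150 in WT cerebellum. The order of these genes thus rests on their exon lengths, 11906 bases for Kcna2 and 4780 for Kcna1, which the SD does not measure.

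In the SCA1 KI cortex 5 of 9 members were lower than in WT and none was higher: the alpha genes Kcna1 and Kcna2 and the beta genes Kcnab1, Kcnab2 and Kcnab3. Of all tested genes 10.8% were lower and 4.82% higher in the same comparison. The median LFC of the 9 members was -0.28, against -0.0028 over all tested genes. For those 5 members every SCA1 KI library lay below every WT library, and 30.9% of all tested genes had no overlap, in either direction.

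**Figure D1:**
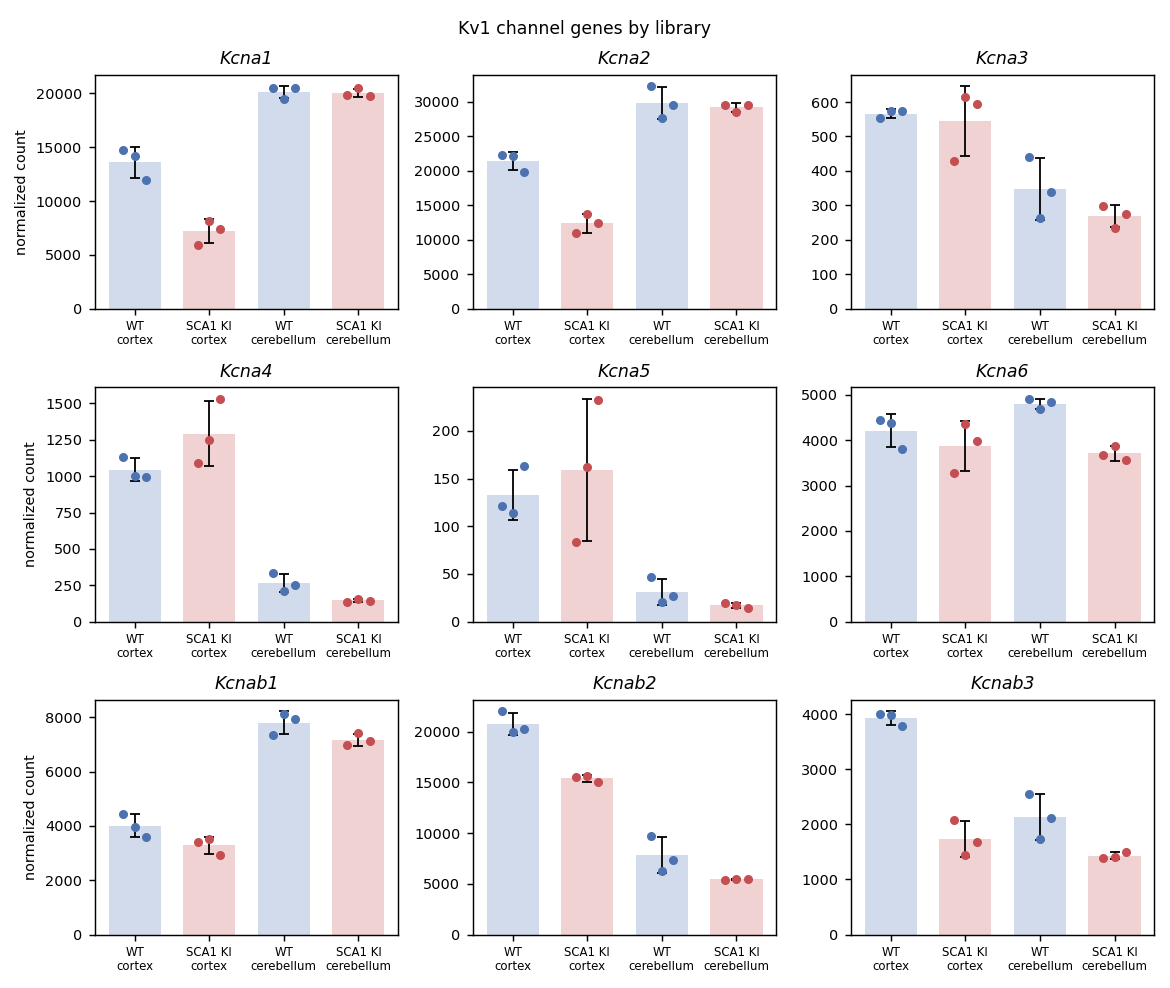
Normalized counts of the 9 Kv1 genes (vertical axes, starting at 0) in WT (blue) and SCA1 KI (red) cortex and cerebellum, with points for libraries, bars for means and error bars for the SD of 3 libraries. Kcna1 and Kcna2 were lower in every SCA1 KI cortex library than in every WT one and overlapped between the genotypes in cerebellum.

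Kcna1, whose product opens at small depolarizations of the axon, lay at 14694, 14166 and 11983 normalized counts in WT cortex libraries B, C and D and at 5965, 8188 and 7413 in SCA1 KI cortex libraries A, E and F. The lowest WT library stood well above the highest SCA1 KI one. The mean in SCA1 KI cortex was 52.8% of that in WT, with an LFC of -0.93 ± 0.102 (SE, 95% interval -1.15 to -0.71, adjusted p = 7.26e-05, limma).

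Kcna2, the usual partner of Kcna1 in axonal channels, counted 22223, 22182 and 19865 in WT cortex libraries B, C and D. In SCA1 KI cortex libraries A, E and F it counted 10959.8, 13706 and 12445, again with no overlap and with the lowest value in library A. Its mean fell to 57.7% of WT, an LFC of -0.80 ± 0.084 (95% interval -0.98 to -0.62, adjusted p = 5.27e-05).

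The remaining alpha genes gave no DEG in cortex. Kcna3 lay at 553 to 575 in WT and 429 to 614 in SCA1 KI cortex (LFC -0.07, adjusted p = 0.824). Kcna4, a fast-inactivating subunit, lay at 992 to 1134 and 1093 to 1534 (LFC 0.30, 95% interval -0.04 to 0.64, adjusted p = 0.224). Kcna5 counted 114 to 163 and 83.8 to 232 (LFC 0.16, adjusted p = 0.798), and Kcna6 counted 3802 to 4454 and 3289 to 4365 (LFC -0.13, 95% interval -0.33 to 0.07, adjusted p = 0.395). The genotypes overlapped for all 4 genes. The direction for Kcna3 and Kcna5 hung on 1 library each, with an LFC of 0.09 for Kcna3 without library A and of -0.17 for Kcna5 without library F.

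All 3 beta genes fell in cortex. Kcnab3 had the lowest share of its WT level of any member, with 4014, 3984 and 3783 normalized counts in WT libraries B, C and D and 2077, 1438 and 1685 in SCA1 KI libraries A, E and F. Its mean was 44.1% of WT (LFC -1.20 ± 0.136, 95% interval -1.49 to -0.90, adjusted p = 9.73e-05).

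Kcnab2, the main beta subunit of the axonal channels and the most abundant beta RNA here, counted 22009, 20017 and 20259.9 in WT libraries B, C and D and 15501, 15679 and 15002 in SCA1 KI libraries A, E and F. The SCA1 KI libraries lay close together, all under the lowest WT library. The LFC was -0.43 ± 0.116 (95% interval -0.68 to -0.18, adjusted p = 0.0219), and adjusted p was 0.0731 without library B and 0.0597 without library F.

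Kcnab1, which can give the channel fast inactivation, counted 4448, 3969 and 3599.98 in WT libraries B, C and D and 3415, 3519 and 2928 in SCA1 KI libraries A, E and F. The gap between the lowest WT and the highest SCA1 KI library was small. The LFC was -0.28 ± 0.085 (95% interval -0.47 to -0.10, adjusted p = 0.0363). This call was lost without cortex library B, C or F, where LFC ranged from -0.29 to -0.20 and adjusted p from 0.0856 to 0.128. It was also lost without cerebellum library 1, 3, 5 or 6, where LFC stayed at -0.28 and adjusted p was 0.0519 to 0.05385. Fitting the cortex alone lost it as well (adjusted p = 0.123).

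Taken per kb, the alpha genes summed to 5916 ± 472 (SD, n = 3) in WT cortex and 3805 ± 538 in SCA1 KI cortex, and the beta genes to 5559 ± 267 and 3747 ± 143. Neither sum overlapped between the genotypes. With Kcna1 and Kcna2 lower, the mix of alpha RNAs differed: Kcna1 made up 48.1% ± 1.30 of the alpha sum in WT and 39.5% ± 0.836 in SCA1 KI cortex, and Kcna2 30.4% ± 0.598 and 27.4% ± 1.24. The share of Kcna6 was 12.0% ± 0.0838 and 17.1% ± 0.282, that of Kcna4 3.65% ± 0.224 and 7.05% ± 0.941. The ratio of the beta to the alpha sum overlapped, at 0.890 to 0.999 in WT and 0.879 to 1.22 in SCA1 KI cortex. These sums and shares are descriptions without a test, rest on the same exon lengths, and a share must rise where others fall.

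**Figure D2:**
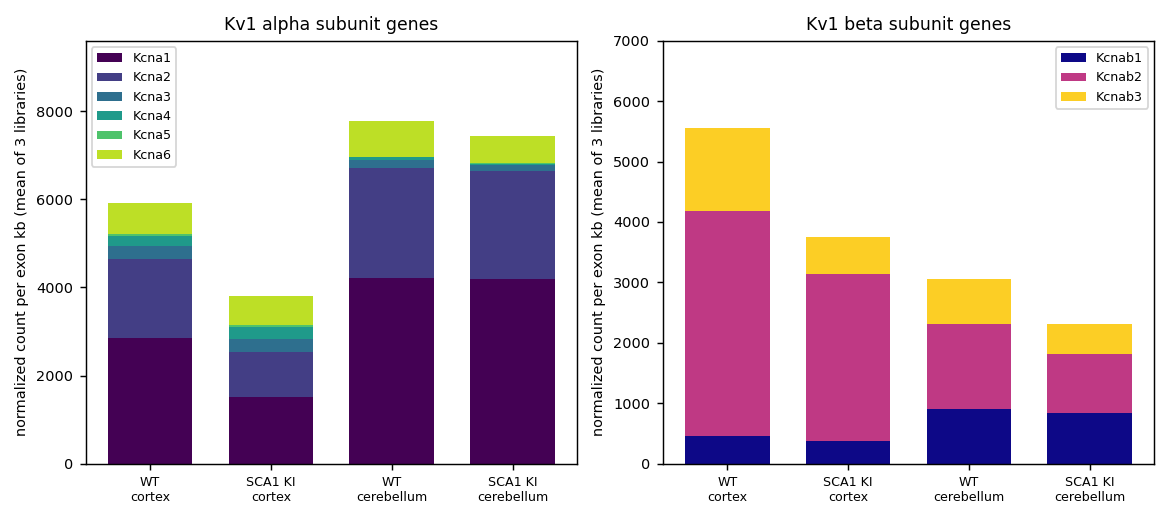
Stacked mean levels (normalized count per exon kb, 3 libraries a group) of the 6 alpha genes (left) and the 3 beta genes (right) by region and genotype. The alpha stack was 5916 in WT and 3805 in SCA1 KI cortex but 7778 and 7442 in cerebellum.

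In bulk tissue, fewer cells of a type cannot be told apart from less RNA per cell. Markers of several cell types were lower in the SCA1 KI cortex beside the Kv1 genes. Of 7 interneuron markers Pvalb, Gad1 and Syt2 were lower DEGs and none was higher, and their sum ranged from 37400 to 40100 normalized counts in WT and from 27440 to 36670 in SCA1 KI cortex, with none at 0. Syt2, found in fast-spiking interneurons, lay at 1622 to 2158 in WT and 978 to 1058 in SCA1 KI cortex, and Pvalb at 1888 to 2167 and 1026 to 1799. Not called in the same list were Slc32a1 (LFC 0.09) and Gad2 (-0.06), whose genotypes overlapped, and Sst (-0.69) and Vip (-0.99), whose genotypes did not. Sst lay at 4946 to 5886 in WT and 3158 to 3592 in SCA1 KI cortex, and Vip at 1793 to 2269 and 881 to 1282. Their SE, which takes in the spread in cerebellum, was 0.252 and 0.372, so no call does not show that they were unchanged. Of 6 markers of cortical excitatory neurons Slc17a7 and Cux2 were lower, with sums of 83140 to 85150 and 57030 to 67100, and of 6 astrocyte markers 4 were lower, with sums of 255300 to 265100 and 123100 to 187700. Oligodendrocyte markers gave no DEG in cortex (sums of 75630 to 130500 and 80950 to 93550). Among 6 markers of midbrain, thalamus and brainstem, Pou4f1, Tal1 and Shox2 were higher DEGs in SCA1 KI cortex and the others were not called. Pou4f1 lay at 2.21 to 6.83 in WT and 217 to 372 in SCA1 KI cortex, and Tal1 at 115 to 125 and 497 to 991. Shox2 was at 0 in WT and 16.2 to 51.4 in SCA1 KI cortex. The part of these cell types and tissues in the lower Kv1 counts was not tested.

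In the SCA1 KI cerebellum 4 of 9 members were lower and none was higher, and they were not the leading pair of the cortex: Kcna4, Kcna6, Kcnab2 and Kcnab3. Of all tested genes 4.44% were lower and 0.917% higher. The median LFC of the members was -0.37, against -0.0049 over all tested genes. For 5 members the genotypes did not overlap, Kcna5 being the fifth, against 31.8% of all tested genes. Of the 9 members, Kcnab2 and Kcnab3 were lower in both regions, which held for 1.28% of all tested genes, and 7 were lower in at least 1, which held for 14% of all tested genes.

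**Figure D3:**
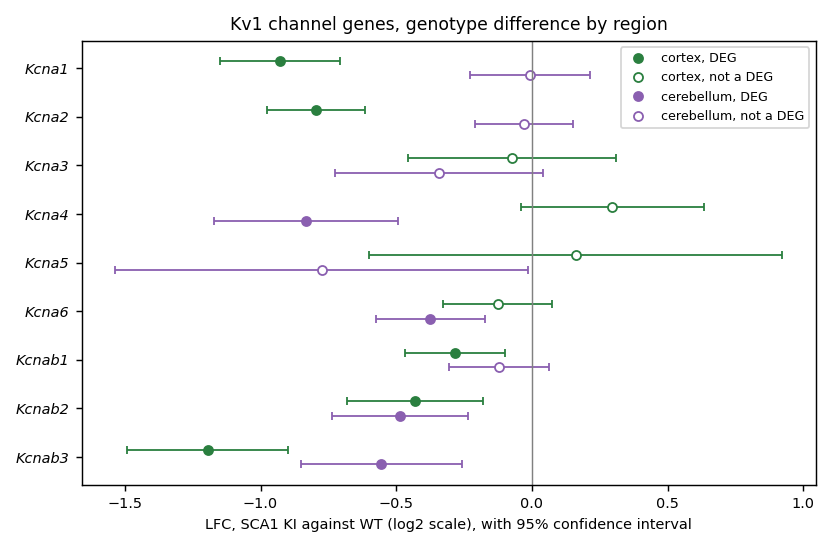
LFC of SCA1 KI against WT (horizontal axis, log2 scale) with 95% confidence interval for the 9 Kv1 genes in cortex (green) and cerebellum (purple), with filled points for DEGs. Kcna1 and Kcna2 were near 0 in cerebellum at -0.01 and -0.03, and Kcna4 was at 0.30 in cortex and -0.83 in cerebellum.

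Kcna1 lay at 20462, 19511 and 20477 in WT cerebellum libraries 2, 4 and 6 and at 19848, 20461 and 19773 in SCA1 KI cerebellum libraries 1, 3 and 5. The genotypes overlapped. The LFC was -0.01 with a 95% interval from -0.23 to 0.21 (adjusted p = 0.983), which leaves out a fall of the cortical size.

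Kcna2 counted 32315, 27701 and 29478 in WT cerebellum libraries 2, 4 and 6 and 29578, 28438 and 29527 in SCA1 KI libraries 1, 3 and 5. Here too the groups overlapped and the LFC was close to 0, at -0.03 (95% interval -0.21 to 0.15, adjusted p = 0.912). Both LFC values turned positive in some alternatives but stayed within 0.09 of 0. Kcnab1 counted 7342 to 8136 in WT and 6998 to 7421 in SCA1 KI cerebellum, also with an overlap (LFC -0.12, 95% interval -0.30 to 0.06, adjusted p = 0.537).

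Kcna4 counted 332, 211 and 249 in WT cerebellum libraries 2, 4 and 6 and 136, 157 and 143 in SCA1 KI libraries 1, 3 and 5. Library 2 was the highest and the groups did not overlap. The LFC was -0.83 ± 0.156 (95% interval -1.17 to -0.49, adjusted p = 0.0077), the mean being 55.1% of WT.

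Kcna6 counted 4905, 4684 and 4835 in WT libraries 2, 4 and 6 and 3682, 3883 and 3567 in SCA1 KI libraries 1, 3 and 5. Both groups were tight and apart. The LFC was -0.37 ± 0.093 (95% interval -0.58 to -0.17, adjusted p = 0.0335).

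Kcnab2 spread widely over WT cerebellum, with 9758, 6289 and 7349.8 in libraries 2, 4 and 6, against 5409, 5513 and 5489 in SCA1 KI libraries 1, 3 and 5. Every WT library lay above every SCA1 KI library. The LFC was -0.49 ± 0.116 (95% interval -0.74 to -0.24, adjusted p = 0.0271).

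Kcnab3 gave 2556, 1729.6 and 2113 in WT libraries 2, 4 and 6 and 1396, 1404 and 1503 in SCA1 KI libraries 1, 3 and 5. The order of the WT libraries was that of Kcnab2 and Kcna4, and the groups did not overlap. The LFC was -0.55 ± 0.136 (95% interval -0.85 to -0.26, adjusted p = 0.0321).

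The rarest member, Kcna5, had 17 to 51 reads in a WT and 15 to 25 in an SCA1 KI cerebellum library. In normalized counts it lay at 46.6, 20.8 and 26.8 in WT libraries 2, 4 and 6 and at 19.4, 17.2 and 14.5 in SCA1 KI libraries 1, 3 and 5. These did not overlap, but the LFC of -0.77 had a 95% interval from -1.54 to -0.01 (adjusted p = 0.278), so Kcna5 was not called. Its SE of 0.351 takes in the spread of all 4 groups, and the part of depth in it was not tested. Kcna3 counted 263 to 440 in WT and 233 to 297 in SCA1 KI cerebellum, with an overlap (LFC -0.34, adjusted p = 0.354).

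Of the 4 cerebellar calls, that of Kcna4 held without any 1 library, with LFC from -0.98 to -0.65 and adjusted p up to 0.0419. The call of Kcna6 was lost without any 1 of the 6 cerebellum libraries (adjusted p 0.0537 to 0.127), that of Kcnab2 without library 1, 3, 5 or 6 (adjusted p 0.0591 to 0.0985), and that of Kcnab3 without library 1, 2, 3, 5 or 6 or cortex library C (adjusted p 0.0508 to 0.127). The Kcnab2 call was also lost with cerebellum fitted alone (adjusted p = 0.0833) and with the trend on exon length and GC content taken out (LFC -0.38, adjusted p = 0.0534), and without library 2 its LFC was -0.31. Without any 1 of libraries 1, 3, 5 and 6 just 1 member was called in cerebellum, and without library 2 it was 2.

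Ranked over all 4 groups, Kcna1, Kcna2 and Kcnab1 were highest in the cerebellum groups, which overlapped, then in WT cortex and lowest in SCA1 KI cortex. Kcnab2 went from WT cortex over SCA1 KI cortex and WT cerebellum down to SCA1 KI cerebellum with no overlap between neighbours. Kcnab3 was highest in WT cortex, and the groups after it, WT cerebellum, SCA1 KI cortex and SCA1 KI cerebellum, each overlapped with the next. Kcna4 and Kcna5 were highest in the cortex groups, which overlapped, then in WT and last in SCA1 KI cerebellum. Kcna6 was highest in WT cerebellum, with an overlap among the other 3 groups, and for Kcna3 all neighbours overlapped.

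Markers of midbrain, thalamus and brainstem were lower in SCA1 KI cerebellum beside these members. All 6 were lower DEGs there. They summed to 9961, 4681 and 6512 normalized counts in WT libraries 2, 4 and 6 against 1265, 1382 and 1642 in SCA1 KI libraries 1, 3 and 5. The order of the WT libraries by this sum was also their order by Kcna2, Kcna3, Kcna4, Kcna5, Kcna6, Kcnab2 and Kcnab3, highest in library 2 and lowest in library 4. Sums of oligodendrocyte, astrocyte and microglia markers had the same order, and the other marker sums did not. The share of all tested genes with this order was not counted, so it cannot be read as a trait of the members. Slc17a6, a glutamate transporter in this list, ranged from 2878 to 6803 in WT and from 982 to 1309.9 in SCA1 KI cerebellum, and Shox2 was at 0 in at least 1 SCA1 KI library. Oligodendrocyte markers summed to 168400 to 256900 in WT and 142700 to 143200 in SCA1 KI cerebellum, 1 of 6 (Cldn11) being a DEG. All 6 had a negative LFC (median -0.52) and no overlap of the genotypes, beside 31.8% of all tested genes with no overlap in either direction. The part of such tissue in the lower Kv1 counts was not tested. In cortex 3 of these 6 markers (Pou4f1, Tal1 and Shox2) were higher DEGs and the others were not called, with sums of 1584 to 1853 in WT and 2692 to 3498 in SCA1 KI.

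**Figure D4:**
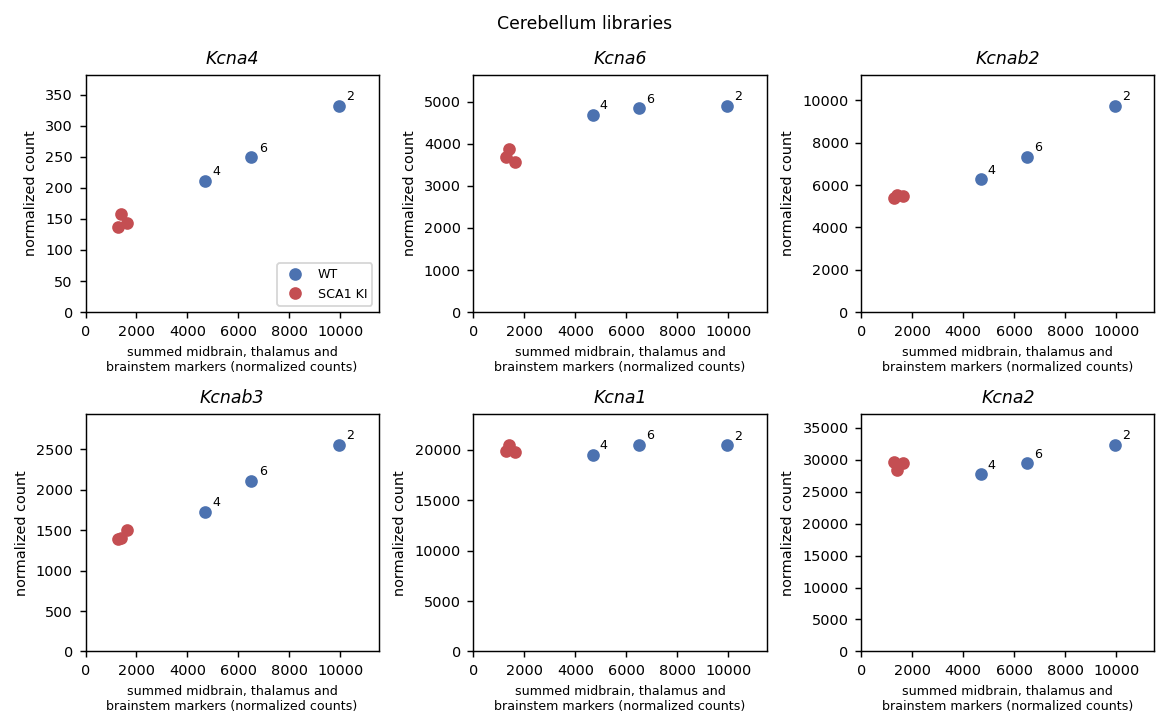
Normalized counts of 6 Kv1 genes (vertical axes, from 0) against the summed normalized counts of 6 markers of midbrain, thalamus and brainstem (horizontal axes) in the cerebellum libraries, WT in blue with library numbers and SCA1 KI in red. The marker sum was 9961 in WT library 2 and at most 1642 in SCA1 KI libraries, and Kcna4, Kcnab2 and Kcnab3 were highest in library 2 while Kcna1 was level.

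Markers of Purkinje and granule cells gave no DEG in cerebellum. None of 6 Purkinje cell markers was called (sums of 277800 to 348800 in WT and 255500 to 287500 in SCA1 KI cerebellum). Nor was any of 6 granule cell markers (122600 to 173100 and 168000 to 173900). All 6 Purkinje markers had a negative LFC (median -0.29), against a median of 0.15 for granule cell markers. Pcp2 lay at 9414 to 10742 in WT and 7439 to 8031 in SCA1 KI cerebellum, with no overlap. The spread is shared by the 4 groups, so genes near 0 in cortex had a wide SE (0.856 for Pcp2, 0.999 for Gabra6). No call for such genes thus does not show that they were unchanged. Of 7 interneuron markers Sst and Vip were lower in cerebellum (sums of 72580 to 74010 and 64390 to 66290), and the part of these cells was not tested. Of the other lists, microglia gave 0 DEGs in cortex and 1 in cerebellum (P2ry12, lower), and astrocytes 1 in cerebellum (Aldh1l1, lower). Striatum gave 1 lower DEG in each region, cortical excitatory neurons 1 higher DEG in cerebellum (Tbr1), and choroid plexus none.

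A call in 1 region alone does not show that the regions differ, so cortical LFC minus cerebellar LFC was tested itself, at an adjusted p under 0.05. This gave 3 of 9 members, Kcna1, Kcna2 and Kcna4, against 8.15% of all tested genes. For Kcna1 the difference was -0.92 ± 0.144 (95% interval -1.23 to -0.61, adjusted p = 0.0022) and for Kcna2 -0.77 ± 0.118 (-1.02 to -0.51, adjusted p = 0.0020). For Kcna4 it was 1.13 ± 0.221 (0.65 to 1.61, adjusted p = 0.0076). All 6 markers of midbrain, thalamus and brainstem were called for this difference too, all higher as Kcna4 was, with a median of 5.26, and their part in it was not tested.

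The other 6 members gave no call for a difference. Kcnab3 came nearest, with -0.64 ± 0.193 (95% interval -1.06 to -0.22, adjusted p = 0.0609), and passed without library 2 (adjusted p = 0.0187), without library A (0.0170), in DESeq2 (0.0284) and with the trend on exon length and GC content taken out (difference -0.72, adjusted p = 0.0169). Kcna6 passed without library A alone (adjusted p = 0.0473, difference 0.36). For Kcnab2 the difference was 0.06 with an interval from -0.30 to 0.41, and it was -0.12 without library 2.

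The Kv1 partner genes are 15 genes whose products hold, anchor or edit Kv1 channels. In SCA1 KI cortex 10 of 15 were lower DEGs and none was higher, beside 10.8% lower among all tested genes, and in cerebellum 1 of 15 was lower, beside 4.44%. Their median LFC was -0.32 in cortex, where all 15 values were negative, and 0.00037 in cerebellum, where 7 were negative. The genotypes did not overlap for 12 of 15 partners in cortex, beside 30.9% of all tested genes, and for 4 of 15 in cerebellum, near the 31.8% of all tested genes.

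LGI proteins are secreted at synapses and axons and bind ADAM receptors that lack protease activity, and together they are part of the Kv1 complex. Lgi2 lay at 1536 to 1739.6 in WT and 809 to 949.7 in SCA1 KI cortex (LFC -0.84 ± 0.074, adjusted p = 1.60e-05). Lgi4 had an LFC of -0.49 (adjusted p = 0.0030) and shares 2059 exon bases with Fxyd3 on the other strand, and Lgi3 was just past the limit at -0.25 (0.0164). The Lgi3 call was lost without library A, B or D, with cortex fitted alone, with centring on the median, in edgeR and with the trend on exon length and GC content taken out, where LFC ranged from -0.25 to -0.16. Lgi1, in which mutations cause an epilepsy, passed the p threshold but not the LFC limit (-0.23, adjusted p = 0.0485).

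The receptors Adam23, Adam22 and Adam11 were all lower in cortex. Adam23 lay at 10357 to 10449 in WT and 5937 to 7418 in SCA1 KI cortex (LFC -0.63 ± 0.070, adjusted p = 8.05e-05). It was the partner that was also lower in cerebellum, at 12001 to 12561 and 9500.2 to 10060 (LFC -0.32, adjusted p = 0.0183), a call lost without library 1, 3, 5 or 6 (adjusted p 0.0525 to 0.0833). Adam22 (-0.28, adjusted p = 0.0254) and Adam11 (-0.36, adjusted p = 0.0262) lost their cortical calls without library A, B or F, and Adam22 also without C, with adjusted p from 0.0613 to 0.0991. With the trend on exon length and GC content taken out both were lost, at LFC of -0.18 (Adam22) and -0.21 (Adam11), and Adam22 also with cortex fitted alone (adjusted p = 0.106).

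Scaffold proteins of the PSD-95 family cluster Kv1 channels at the membrane. Dlg4, which codes for PSD-95, lay at 35743 to 38101 in WT and 24350 to 28127 in SCA1 KI cortex (LFC -0.52 ± 0.061, adjusted p = 0.00012). Dlg1 was lower as well (-0.32, adjusted p = 0.0113, and 0.0538 without library C), while Dlg2 passed the p threshold alone (-0.20, adjusted p = 0.0461). Ank3, the ankyrin of the axon initial segment, was lower with an LFC of -0.34 (adjusted p = 0.0417), but its groups overlapped and 9 of 12 fits that left out 1 library lost the call (all except those without library 2, D or E, adjusted p up to 0.148). Without library A its LFC was -0.22, with the trend on exon length and GC content taken out it was -0.08 (adjusted p = 0.261), and with cortex fitted alone adjusted p was 0.137.

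The genes of the juxtaparanodal anchor, Cntn2 (LFC -0.24, adjusted p = 0.181), Cntnap2 (-0.10, 0.454) and Epb41l3 (-0.15, 0.298), were not called in cortex. Adarb1 codes for an RNA-editing enzyme that recodes a site in Kcna1 RNA. It lay at 11645 to 12076 in WT and 6888 to 9301 in SCA1 KI cortex (LFC -0.54 ± 0.086, adjusted p = 0.0011) and at 17496 to 18443 and 17936 to 18947 in cerebellum (LFC 0.03, 95% interval -0.16 to 0.22). Of the 15 partners 3 differed between regions in their LFC, beside 8.15% of all tested genes: Lgi2 (-0.70, adjusted p = 0.0017), Dlg4 (-0.37, 0.0205) and Adarb1 (-0.57, 0.0129).

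**Figure D5:**
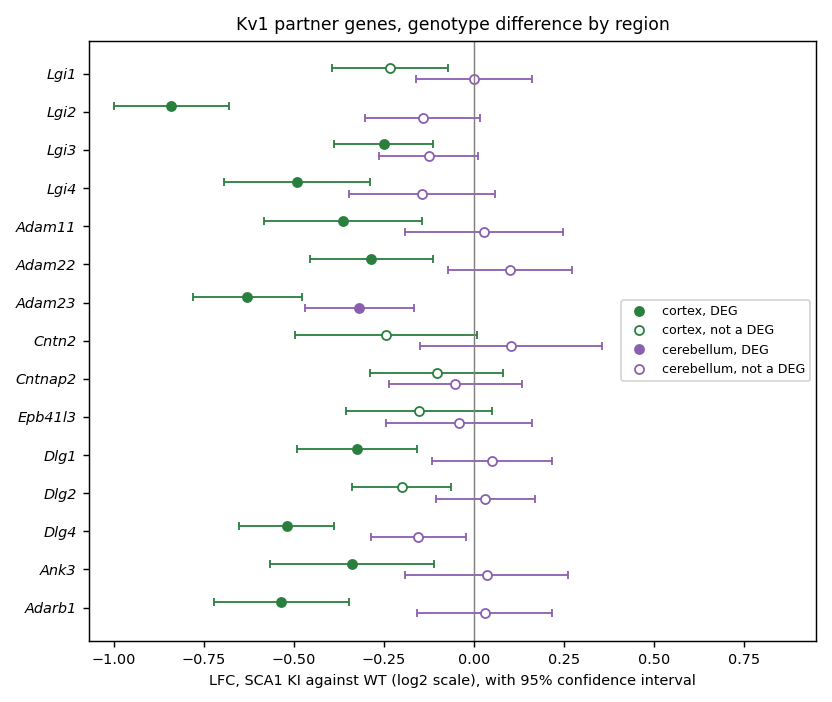
LFC of SCA1 KI against WT (horizontal axis, log2 scale) with 95% confidence interval for 15 Kv1 partner genes in cortex (green) and cerebellum (purple), with filled points for DEGs. In cortex all 15 points lie left of 0 and 10 are filled, and in cerebellum Adam23 is the filled one.

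The alpha genes of the other voltage-gated families were counted beside the Kv1 genes. Of 12 such genes (Kv2, Kv3, Kv4 and Kv7), 6 were lower and none higher in cortex, with a median LFC of -0.38, beside 10.8% lower and 4.82% higher among all tested genes. In cerebellum 5 were lower and 1 higher, with a median of -0.26, beside 4.44% and 0.917%.

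Within each cortex group Kcna1 and Kcna2 put the libraries in the same order, but within the cerebellum groups they did not. In SCA1 KI cerebellum library 3 was the highest for Kcna1 (20461) and the lowest for Kcna2 (28438). Across the 12 libraries, after the mean of each region was subtracted from the log2 values, Pearson's r between Kcna1 and Kcna2 was 0.986. The genotype difference in cortex is part of what they share, and r without it was not measured. Kcna1 with Kcna4, by contrast, gave -0.191, and Kcnab2 with Kcnab3 gave 0.859. By the same measure the 2 genes most like Kcna1 were Strbp (r = 0.988) and Man1a2 (0.987), and those most like Kcna2 were Sipa1l1 (0.984) and Dusp7 (0.983). Strbp had an LFC of -0.51 in cortex and 0.04 in cerebellum, and Sipa1l1 -0.89 and -0.08.

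The other members that were DEGs were like different genes. Kcna4 was most like Nrsn2 (r = 0.985) and Slc17a6 (0.968), the latter being in the marker list of midbrain, thalamus and brainstem, with an LFC of 0.31 in cortex and -1.91 in cerebellum. Kcna6 was most like Ripor2 (0.954) and Cttnbp2 (0.9499), Kcnab1 like Fam20a (0.967) and Kit (0.928), and Kcnab2 like Pnkd and Rcan2 (both 0.983). Kcnab3 was most like Hjv (0.977), whose LFC was -2.21 in cortex and -1.33 in cerebellum, and Adssl1 (0.969). These are descriptions over 12 libraries that share genotype, tissue cut and depth.

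Ataxin-1 acts with Capicua, a repressor that binds TGAATGAA and TGAATGGA. The RefSeq promoter table for GRCm38.p6 (250 bases before to 50 after a start) holds 11 promoters of 7 members, and Kcna1 and Kcnab3 are not in it. Neither motif was found on either strand of these 11, while 2.47% of all 32851 promoters hold at least 1. No match says only that these letters are not in the window. The promoters of Kcna2 and of the most upstream Kcnab2 start are shown because they belong to an alpha and a beta gene that both fell in cortex. CG pairs are marked in capitals, with 0.93 and 0.85 of the number that the base content gives by chance (300 bases). The median over all promoters was 0.384. For Kcnab2 the promoter with the highest such ratio was the one chosen, so its value is no trait of the gene. The other Kcnab2 promoters stood at 0.136 and 0.213. The 250 bases before the start lie at chr3:107101317-107101566 (Kcna2, plus strand) and chr4:152477550-152477799 (Kcnab2, minus strand), with 18 and 20 CG pairs.

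Kcna2: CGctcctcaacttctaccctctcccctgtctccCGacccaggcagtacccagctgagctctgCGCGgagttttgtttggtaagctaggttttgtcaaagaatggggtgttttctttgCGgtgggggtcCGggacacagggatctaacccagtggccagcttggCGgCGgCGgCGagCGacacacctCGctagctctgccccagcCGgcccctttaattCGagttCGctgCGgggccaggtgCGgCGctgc

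Kcnab2: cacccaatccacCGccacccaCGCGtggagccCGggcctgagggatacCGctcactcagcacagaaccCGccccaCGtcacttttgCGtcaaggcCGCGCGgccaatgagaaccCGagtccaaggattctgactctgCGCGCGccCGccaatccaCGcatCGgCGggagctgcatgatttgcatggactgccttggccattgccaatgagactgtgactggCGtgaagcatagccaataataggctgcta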

How the data were processed

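Poly-adenylated RNA was sequenced as read pairs, and the authors used STAR to align reads to mm10, featureCounts to count them on genes and DESeq2 to normalize. The deposited signal is the normalized count, reads divided by a size factor. Whole reads were recovered from 100% of values (tolerance 0.01), 29520855 to 51311309 a library, and replicates differed by more than sampling noise (mean chi-square 7.43 to 36.3 a gene). Older symbols (754) were renamed by RefSeq synonyms, and coordinates are from GENCODE vM21. Since the file holds no raw counts, limma 3.58.1 (R 4.3.3, empirical Bayes with trend) was run on log2(normalized count + 1), which understates low genes, with 12 libraries and 4 group means. P-values measure the spread among these libraries. On simulated counts for the cortex (15369 genes) 91.5% of 200 changed genes were recovered and 8 of 15169 unchanged ones called. Each changed gene was given an LFC of 1 in size and was drawn from genes above a minimum WT mean. Recovery of smaller LFC, such as those of Kcnab1, Kcnab2 and Kcna6, and of rare genes was not measured. Alternatives included edgeR 4.0.16 and DESeq2 1.42.0. The members, the partner list and the 10 lists of marker genes were chosen with earlier results of these data known. Named were all members and partners, and for each DEG member the 2 genes most like it. Protein and histology were not analysed here.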

Additional observations from a re-analysis of the deposited data

Results flagged for a closer look

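The effect of the genotype differed between cortex and cerebellum, by limma's test of the difference itself, for 3 Kv1 genes. The cortical minus the cerebellar LFC was -0.92 for Kcna1, -0.77 for Kcna2 and 1.13 for Kcna4. The first pair was lower in SCA1 KI cortex with overlapping genotypes in cerebellum, and Kcna4 was lower in SCA1 KI cerebellum with overlapping genotypes in cortex. All 3 calls held in each of the 9 alternatives with all libraries and each of the 12 fits without 1 library, with differences from -1.02 to -0.79, from -0.84 to -0.68 and from 0.95 to 1.28 in the latter. All 6 markers of midbrain, thalamus and brainstem were called for the same difference, in the direction of Kcna4, with a median of 5.26, and their part was not tested. Groups of 3 libraries were not tested for single libraries that stand apart.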

How the results depend on the processing

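Settings that kept all libraries numbered 10 (9 for comparisons of regions), and 12 fits left out 1 library. Of 1430 values of single genes, 1337 kept direction and side of the threshold, 63 lost the call, 9 gained it and 21 changed sign. The cortical calls of Kcna1, Kcna2 and Kcnab3 and the cerebellar call of Kcna4 held throughout. A fit with the trend on exon length and GC content taken out of each library left 3 of 9 members (Kcnab1 and Kcnab2 lost, adjusted p 0.0715 and 0.0866) and 6 of 15 partners called in cortex, and the cause was not tested. It also turned the cerebellar LFC of Kcna1 (0.081), Kcna2 (0.0047) and Epb41l3 (0.013) positive, and Lgi1 turned negative with edgeR (-0.0023) and DESeq2 (-0.0014).

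Without 1 library, called members numbered 3 to 5 in cortex (3 without B or F), 1 to 4 in cerebellum, 3 to 5 for the difference between regions (5 without A) and 8 between WT regions, and called partners 6 to 11 in cortex (6 without A or B) and 0 to 1 in cerebellum (0 without 1, 3, 5 or 6). LFC whose sign changed ranged in cerebellum from -0.032 to 0.0032 (Kcna1), -0.081 to 0.030 (Kcna2), -0.052 to 0.061 (Lgi1), -0.070 to 0.12 (Adam11), -0.14 to 0.039 (Cntnap2), -0.091 to 0.018 (Epb41l3), -0.022 to 0.098 (Dlg1) and -0.025 to 0.079 (Dlg2), in cortex from -0.17 to 0.092 (Kcna3) and -0.17 to 0.56 (Kcna5), and for the Kcnab2 difference from -0.12 to 0.20. No paired analysis was possible because the columns carry no replicate number of the labels. Kcna5 had the fewest reads of the members, 15 to 51 in a cerebellum library, and the part of depth in its results was not tested.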
